A study of Mus musculus with 6 samples.

Results

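Trp53 and 9 genes that p53 is known to switch on were followed across 6 RNA sequencing libraries of mouse pancreatic tumour cells. The 10 genes were Trp53, Mdm2, Ccng1, Btg2, Phlda3, Zmat3, Plk2, Bax, Sesn2 and Trp53inp1. They were chosen by symbol, and all 10 were found among the 24493 genes of the deposited table. Of these, 9 passed the expression filter (1 TPM or more in 2 or more libraries), which kept 11549 genes in all; these 9 were above that level in every library. Trp53inp1 lay below the filter.

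The cells were KPCY cells of strain C57BL/6, transduced with a non-targeting short hairpin RNA (shNT, n = 2), with Pthlh hairpin 1 (the labels' shPthlh oligo #1, n = 2) or with Pthlh hairpin 2 (shPthlh oligo #2, n = 2). KPCY names a mouse model in which Cre, driven by a pancreatic promoter, alters Trp53 and switches on a yellow fluorescent label, and all 3 groups carry this background. The labels used here do not give the Trp53 allele, so whether the Trp53 transcript encodes wild-type or mutant protein is not known here. The condition is labelled as tumour cells sorted after growth in vivo, while the protocols describe culture, and the series design names a pair of parental clones without tying a library to either. The labels do not say whether replicates were separate cultures or animals, and the p-values therefore reflect only library-to-library spread, possibly technical.

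The transcription factor p53 is stabilised by DNA damage and oncogene signalling and switches on genes of cell cycle arrest, DNA repair and apoptosis. Mdm2, itself a target, is the ubiquitin ligase that sends p53 for degradation, and the Arf product of Cdkn2a restrains Mdm2. Loss or mutation of Trp53 is among the most frequent events in pancreatic cancer, and targets of p53 also answer to other transcription factors.

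The binding site of p53 is a pair of half-sites. Each half-site has 3 purines, a C, 2 bases that are A or T, a G and 3 pyrimidines, a pattern that reads the same on both strands. Promoter windows from RefSeq (GRCm38.p6, 250 bases before to 50 after each start) were at hand for 8 of the 10 genes, not for Zmat3 and Trp53inp1. A half-site lay in 4 of these 8 windows, against 8.36% of all 32851 windows. The 4 are shown on the strand of their gene, because they are the only half-sites in these windows; a single half-site is not a full binding site. Capitals mark the half-site.
Trp53: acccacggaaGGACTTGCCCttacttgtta
Mdm2: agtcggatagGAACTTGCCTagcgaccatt
Ccng1: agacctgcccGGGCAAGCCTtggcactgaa
Bax: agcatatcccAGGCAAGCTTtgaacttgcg
The capitals lie at chr11:69580284-69580293 (plus strand), chr10:117710935-117710944 (minus), chr11:40755462-40755471 (minus) and chr7:45467090-45467099 (minus). None of the 8 windows held a pair of half-sites within 13 bases of each other, as 0.0731% of all windows did. The windows of Btg2, Phlda3, Plk2 and Sesn2 held no half-site, which says only that these letters are not in these 300 bases. The Trp53 half-site also falls in the window of Wrap53, the divergent neighbour that starts 103 bases away on the other strand.

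Pthlh, the targeted gene, was at 0.752 and 0.966 TPM in shNT, at 0 and 0.106 with hairpin 1, and at 0.0423 and 0.263 with hairpin 2. In the model without the filter it was called lower with hairpin 1 (log2 difference -0.82; limma adjusted p = 0.00837). The hairpin 2 difference of -0.69 missed the threshold of 0.05 (limma adjusted p = 0.0583). Of 7 markers of pancreatic ductal epithelium 6 reached 1 TPM, with a summed level of 3991 to 4150 TPM in shNT, 4388 to 4456 with hairpin 1 and 3759 to 3850 with hairpin 2. The exception was the epithelial marker Epcam, at most 0.605 TPM. The sum hides moves in both directions with hairpin 1. Krt19, Sox9 and Krt8 were at 232%, 180% and 121% of the shNT mean. Krt18, Cdh1 and Krt7 were at 74.0%, 78.7% and 81.3%. No marker of leukocytes, fibroblasts, endothelium or islets reached 1 TPM in any library. Acinar markers summed to 11.8 to 20.1 TPM, mostly the elastase Cela1 (10.8 to 19.5) with the trypsinogen Prss2 at up to 1.39. The remaining acinar marker, Cpa1, was at 0 TPM in all 6 libraries. Erythroid markers summed to 0.945 to 2.197 TPM, mostly the globin Hba-a1 (up to 1.88). The globin Hbb-bs was at 0 TPM in all 6 libraries, and Alas2 reached at most 0.453. Whether acinar or erythroid cells were present, and their part in the results below, was not tested. Replicates correlated across genes at 0.987 to 0.992 and libraries of different groups at 0.960 to 0.988 (log2(TPM + 1)); genes are not independent replicates. The depth of the libraries is unknown. The Mir6236 entry took 19.7% to 34.1% of all TPM, most in shNT, and the median gene stood 0.11 above shNT with hairpin 1 and 0.09 above it with hairpin 2 (log2). With small-RNA entries left out these medians were -0.06 and -0.03, so some small differences are also given relative to the median gene.

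Trp53 (chromosome 11, 69580359 to 69591873, plus strand, mm10) was among the abundant transcripts, with a mean level above that of 94.7% of tested genes. It was at 191 and 181 TPM in shNT, at 159 and 154 with hairpin 1, and at 180.2 and 178 with hairpin 2. Both hairpin 1 libraries lay below every other library, and both hairpin 2 libraries lay just below the shNT pair. Against shNT, Trp53 fell by 0.25 ± 0.05 with hairpin 1 (log2, SE; limma adjusted p = 0.00843), to 84.0% of the shNT mean. With hairpin 2 the difference was -0.05 (95% interval -0.17 to 0.07; limma adjusted p = 0.463). Leaving out hairpin 1 replicate 2 ended the hairpin 1 call (limma adjusted p = 0.0695), and over 17 alternatives the difference ranged from -0.43 to -0.21. Relative to the median gene, Trp53 stood at -0.36 with hairpin 1 and at -0.14 with hairpin 2. In bulk RNA a change in the number of expressing cells and a change in RNA per cell cannot be told apart.

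Mdm2 (chromosome 10, 117688875 to 117710758, minus strand), the ubiquitin ligase and feedback inhibitor of p53, did not pass the test in any comparison. Its level was 16.8 and 15.5 TPM in shNT, 15.7 and 14.4 with hairpin 1, and 15.7 and 17.2 with hairpin 2, so that all 3 groups overlapped. The difference from shNT was -0.10 with hairpin 1 (95% interval -0.28 to 0.09) and 0.03 with hairpin 2 (-0.16 to 0.21) on the log2 scale. Relative to the median gene, Mdm2 stood at -0.20 with hairpin 1 and at -0.06 with hairpin 2.

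**Figure D1:**
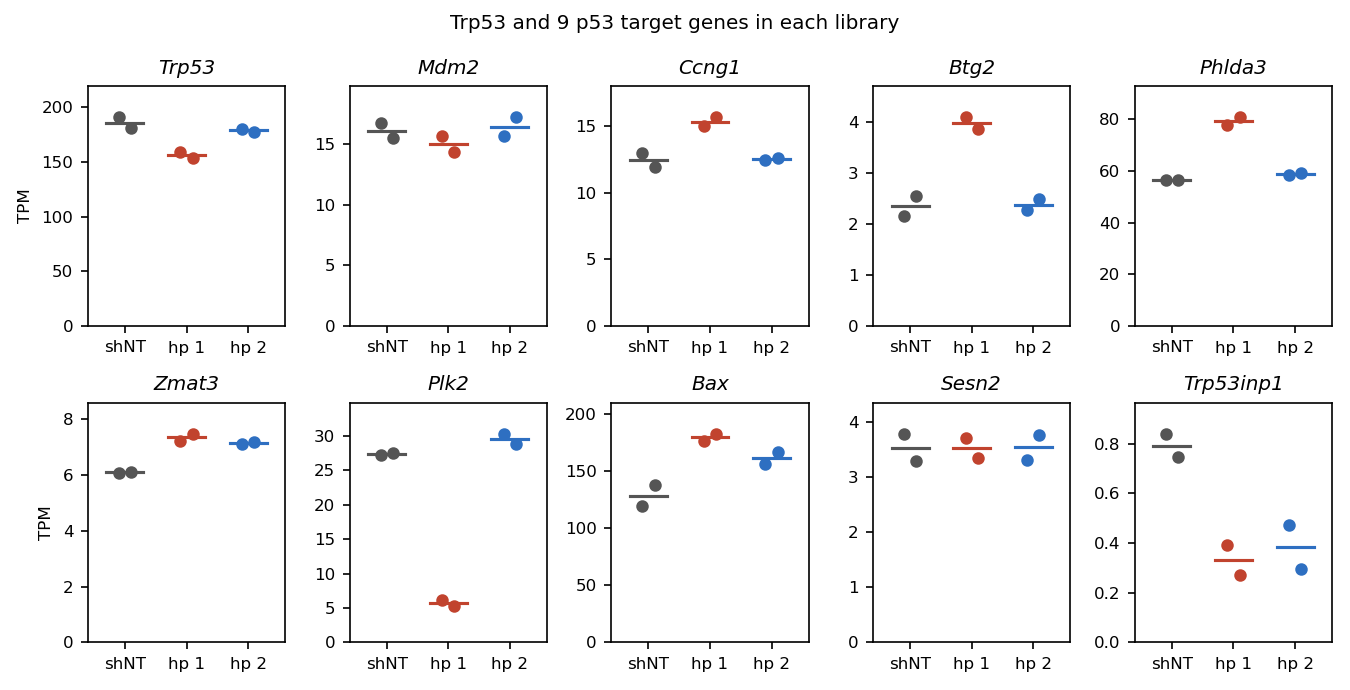
TPM of the 10 genes (vertical axes, each from 0) in the 2 libraries of each group (points; hp 1 and hp 2 are hairpins 1 and 2), with the group mean as a line. Plk2 stands at 6.20 and 5.24 TPM with hairpin 1 and above 27 in every other library, and Phlda3 and Btg2 are highest with hairpin 1.

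Among genes of growth control, Plk2 (chromosome 13, 110395046 to 110400844, plus strand), a polo-like kinase, had the largest difference of the 10. It was at 27.2 and 27.5 TPM in shNT, at 6.20 and 5.24 with hairpin 1, and at 30.3 and 28.9 with hairpin 2. The hairpin 1 libraries lay far below the others, at 20.9% of the shNT mean, while the hairpin 2 libraries were slightly above shNT. Plk2 fell by 2.08 ± 0.08 with hairpin 1 (log2, SE; limma adjusted p = 7.89e-05), and the call held in all 17 alternatives, with adjusted p from 1.85e-07 to 0.00102. With hairpin 2 the difference was 0.11 (95% interval -0.09 to 0.30; limma adjusted p = 0.375).

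Btg2 (chromosome 1, 134075170 to 134079120, minus strand), an antiproliferative regulator of mRNA decay, was the member with the largest rise under hairpin 1. It was at 2.16 and 2.55 TPM in shNT, at 4.09 and 3.85 with hairpin 1, and at 2.26 and 2.49 with hairpin 2. Only the hairpin 1 pair stood apart, and the hairpin 2 values lay within the shNT range. Btg2 rose by 0.57 ± 0.10 with hairpin 1 (log2, SE; limma adjusted p = 0.00552), a call kept in all 16 alternatives, against 0.01 with hairpin 2 (95% interval -0.23 to 0.25).

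Ccng1 (chromosome 11, 40748552 to 40755311, minus strand) encodes cyclin G1, which binds a regulatory subunit of phosphatase PP2A. Its level was 12.98 and 11.9 TPM in shNT, 15.03 and 15.7 with hairpin 1, and 12.5 and 12.6 with hairpin 2. Again the hairpin 1 pair was highest and the hairpin 2 pair lay inside the shNT range. Ccng1 rose by 0.28 ± 0.06 with hairpin 1 (log2, SE; limma adjusted p = 0.0113), or by 0.18 relative to the median gene. Leaving out hairpin 1 replicate 2 ended this call (limma adjusted p = 0.0693), as did median-ratio scaling (0.0512), chromosome centring (0.213) and removal of small-RNA entries (0.467).

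Phlda3 (chromosome 1, 135766119 to 135769136, plus strand), a small protein that competes with the kinase AKT for membrane lipids, was at 56.7 and 56.5 TPM in shNT. Hairpin 1 libraries reached 78.0 and 80.8 TPM, and hairpin 2 libraries 58.6 and 59.1 TPM. The groups did not overlap, with hairpin 1 well above the rest. Phlda3 rose by 0.48 ± 0.04 with hairpin 1 (log2, SE; limma adjusted p = 0.000629), to 140.3% of shNT. This call held in all 17 alternatives, with the smallest difference, 0.31, without small-RNA entries. With hairpin 2 the difference was 0.06 (95% interval -0.05 to 0.16; limma adjusted p = 0.383).

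Zmat3 (chromosome 3, 32334792 to 32366014, minus strand), a zinc finger protein that binds RNA, had both hairpin pairs above shNT, at similar levels. It was at 6.07 and 6.12 TPM in shNT, at 7.22 and 7.48 with hairpin 1, and at 7.13 and 7.20 with hairpin 2. It rose by 0.23 ± 0.06 with hairpin 1 (log2, SE; limma adjusted p = 0.0179), or by 0.13 relative to the median gene. The hairpin 2 difference of 0.20 missed the threshold (limma adjusted p = 0.0774). Leaving out shNT replicate 1 ended the hairpin 1 call (limma adjusted p = 0.0533), and so did leaving out replicate 1 or 2 of hairpin 1 (0.0606 and 0.0960). Each of the 4 other scalings ended it too, with a limma adjusted p of 0.0734 for median ratios, 0.136 for quantiles, 0.204 for chromosome centring and 0.615 with small-RNA entries removed.

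Sesn2 (chromosome 4, 132492032 to 132510501, minus strand), a sestrin that restrains the growth kinase mTORC1, did not pass in any comparison. It was at 3.78 and 3.28 TPM in shNT, at 3.70 and 3.34 with hairpin 1, and at 3.31 and 3.77 with hairpin 2. All 3 groups overlapped. The 95% interval of the log2 difference from shNT was -0.25 to 0.25 with either hairpin.

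Of the members that act in cell death, Bax (chromosome 7, 45461697 to 45466898, minus strand) encodes the pore-forming effector of mitochondrial apoptosis. It was at 119 and 138 TPM in shNT, at 177 and 183 with hairpin 1, and at 156 and 167 with hairpin 2. Every hairpin library lay above both shNT libraries, and hairpin 1 lay above hairpin 2. Bax rose by 0.48 ± 0.08 with hairpin 1 (log2, SE; limma adjusted p = 0.00506), or by 0.38 relative to the median gene. The call was kept in all 17 alternatives, over which the difference ranged from 0.28 to 0.59. With hairpin 2 the difference of 0.33 missed the threshold (95% interval 0.13 to 0.53; limma adjusted p = 0.0577). It passed without shNT replicate 2 (limma adjusted p = 0.00689) and among genes with a mean TPM of at least 5 (0.0486). Bax overlaps a predicted gene on the same strand, Gm45808, so part of its value may be uncertain.

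Trp53inp1 (chromosome 4, 11156431 to 11174379, plus strand), a nuclear protein that promotes apoptosis and autophagy, was the scarcest of the 10. It was at 0.839 and 0.745 TPM in shNT, at 0.391 and 0.272 with hairpin 1, and at 0.471 and 0.297 with hairpin 2. Every hairpin library lay below both shNT libraries, with means of 41.8% and 48.5% of shNT. In the model fitted without the filter, Trp53inp1 fell by 0.43 ± 0.09 with hairpin 1 (log2, SE; limma adjusted p = 0.0219) and differed by -0.38 with hairpin 2 (limma adjusted p = 0.0919). After chromosome centring the hairpin 2 difference passed, at -0.50 (limma adjusted p = 0.0134). Leaving out either shNT library ended the hairpin 1 call (limma adjusted p = 0.0959 for replicate 1 and 0.0615 for replicate 2), as did leaving out either library of hairpin 1 (0.0723 and 0.119). At these levels the size rests on the pseudocount, and with 0.1 in place of 1 the hairpin 1 difference was -1.06.

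**Figure D2:**
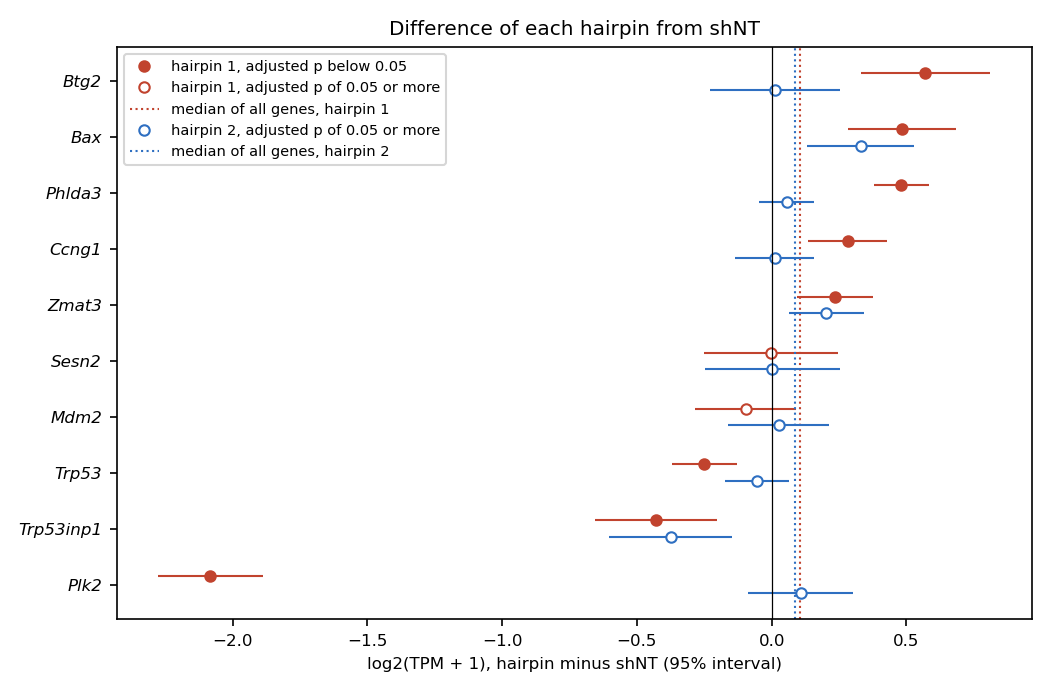
Difference of each hairpin from shNT in log2(TPM + 1) (horizontal axis) for the 10 genes, with 95% intervals; filled points have a limma adjusted p below 0.05, and dotted lines mark the median of all tested genes. Hairpin 1 spans -2.08 for Plk2 to 0.57 for Btg2, while no hairpin 2 point is filled.

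With hairpin 1, limma called 7 of the 9 filtered genes, 5 higher and 2 lower, where 50.2% of all tested genes were called, 32.1% higher and 18.1% lower. The 5 higher were Ccng1, Btg2, Phlda3, Zmat3 and Bax; the 2 lower were Trp53 and Plk2. The count was 4 of 9 without hairpin 1 replicate 2. Of all calls 63.8% were higher in deposited TPM, 50.8% after median-ratio scaling and 37.6% without small-RNA entries, where the members called were 3 higher and 3 lower, Trp53inp1 included. Their median difference was 0.23, against 0.11 for all genes. Libraries of hairpin 1 and shNT did not overlap for 7 of the 9, as for 76.8% of all tested genes.

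With hairpin 2, limma called 0 of the 9, where 9.63% of all genes were called, 6.62% higher and 3% lower. Of the 9, 2 had an unadjusted p under 0.05. Their median difference was 0.03, against 0.09 for all genes, and 5 of the 9 did not overlap with shNT, as for 61.8% of all genes. The hairpin 2 differences of Mdm2, Ccng1, Btg2, Phlda3 and Sesn2 changed sign after median-ratio scaling, quantile normalization or removal of small-RNA entries, and that of Plk2 after the last of these. Of all hairpin 2 calls 68.8% were higher in deposited TPM and 28.5% without small-RNA entries. Both comparisons share the same 2 shNT libraries.

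In the mean of both hairpins against shNT, 4 of the 9 were called higher and 2 lower, where 39.4% of all genes were called, 27.3% higher and 12.1% lower. The mean stood at -0.99 ± 0.07 for Plk2, 0.41 ± 0.07 for Bax and 0.27 ± 0.04 for Phlda3 (log2, SE, with limma adjusted p = 0.000933, 0.00895 and 0.00455). For several genes this mean joins unlike hairpins. Hairpin 1 and hairpin 2 stood at -2.08 and 0.11 for Plk2, 0.48 and 0.06 for Phlda3, and 0.57 and 0.01 for Btg2. For Trp53 they were at -0.25 and -0.05. They stood closer together for Bax (0.48 and 0.33) and Zmat3 (0.23 and 0.20). The Phlda3 call was lost without small-RNA entries (0.12; limma adjusted p = 0.323). The others called were Zmat3 and Btg2, higher, and Trp53, lower. These calls were kept in 4 of 16 alternatives for Btg2, in 7 of 17 for Zmat3 and in 10 of 17 for Trp53. Btg2 and Zmat3 were lost under each of the 4 other scalings (limma adjusted p of 0.0636 to 0.250 for Btg2 and 0.0870 to 0.580 for Zmat3). Leaving out shNT replicate 1 ended all 3 calls (limma adjusted p = 0.171 for Btg2, 0.0651 for Zmat3 and 0.0626 for Trp53). Of all calls 69.2% were higher in deposited TPM and 33.2% without small-RNA entries, where 1 member was called higher and 3 lower, Trp53inp1 included. The count fell without any 1 of the 4 hairpin libraries, and so did the count of all genes called. Treating the 4 hairpin libraries as 1 group puts the gap between hairpins into the spread. In that fit limma called 0 of the 9, with 2 at an unadjusted p under 0.05, where 1 of all 11549 genes was called.

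The hairpins differed from each other in 5 of the 9, with 2 higher and 3 lower in hairpin 2, where 40.1% of all genes were called, 19.9% higher and 20.2% lower. Their libraries did not overlap for 7 of the 9, as for 77% of all genes. Plk2 was higher with hairpin 2 than with hairpin 1 by 2.19 ± 0.08 (log2, SE; limma adjusted p = 8.25e-05). Phlda3 was lower with hairpin 2 by 0.43 (difference -0.43 ± 0.04; limma adjusted p = 0.00128). Btg2 stood at -0.56 (limma adjusted p = 0.00799), a call that ended on leaving out replicate 1 of hairpin 1 (0.0560) or of hairpin 2 (0.0515). Trp53 differed by 0.20 (limma adjusted p = 0.0246) and Ccng1 by -0.27 (0.0167). Each of these 2 calls ended when any hairpin library was left out. The limma adjusted p for Trp53 was then 0.0902 and 0.154 (replicates 1 and 2 of hairpin 1) and 0.138 and 0.111 (those of hairpin 2). For Ccng1 it was 0.0600, 0.0958, 0.0899 and 0.0796 in the same order. Removal of small-RNA entries ended both as well (limma adjusted p = 0.0862 for Trp53 and 0.166 for Ccng1). The count was 2 of 9 without replicate 1 of either hairpin and 3 of 9 without replicate 2 of either. Without small-RNA entries it was 3 of 10, since Trp53inp1 then passes the filter. For Bax the difference was -0.15 (95% interval -0.35 to 0.05). It passed in the compared groups alone (limma adjusted p = 0.0355) and without shNT replicate 1 (0.0345) or replicate 2 (0.0341). The difference for Zmat3 was -0.03 (-0.17 to 0.11), for Sesn2 0.01 (-0.24 to 0.26) and for Mdm2 0.12 (-0.07 to 0.31).

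Chromosomes did not stand at one level between hairpin 1 and shNT, which bears on small differences. The median gene with hairpin 1 was at 0.17 on chromosome 11, which holds Trp53 and Ccng1, at 0.22 on chromosome 7 (Bax) and at 0.00 on chromosome 1 (Btg2 and Phlda3). Over the autosomes and X it ran from -0.27 on chromosome 2 to 0.22 on chromosome 7. With hairpin 2 it ran from -0.10 on chromosome 9 to 0.17 on chromosome 17. After each chromosome was centred, Trp53 was at -0.42 with hairpin 1 (limma adjusted p = 0.00232) and Bax at 0.28 (0.0284). Btg2 was at 0.56 and Phlda3 at 0.47, while Ccng1 at 0.11 was no longer called. Mdm2, at -0.29, was called lower in that setting alone (limma adjusted p = 0.0241). The part of chromosome copy number in these values was not tested.

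**Figure D3:**
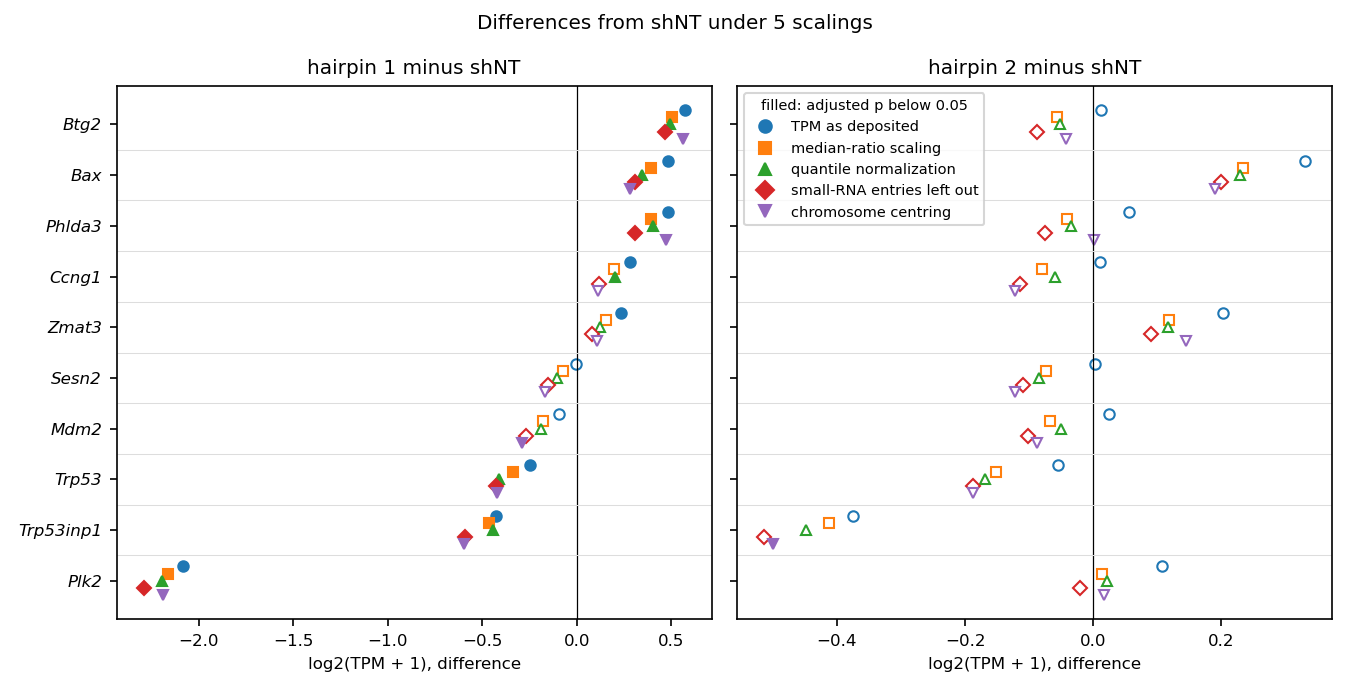
Difference from shNT in log2(TPM + 1) (horizontal axes, unequal ranges) for each hairpin under TPM as deposited and 4 other scalings; filled symbols have a limma adjusted p below 0.05. With hairpin 1, Plk2, Trp53, Trp53inp1, Btg2, Bax and Phlda3 are filled under all 5, whereas Ccng1 and Zmat3 lose the call under 3 and 4 of them.

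A wider list held 49 other genes of the p53 pathway, of which 42 passed the filter. Ephx1, Pold1, Trp53bp1, Rchy1, Rap2b and Tnfrsf10b are described below because they had the smallest p in the mean of both hairpins. Their small p-values follow in part from that choice. With hairpin 1, limma called 15 higher and 8 lower of the 42, with 2 higher and 1 lower for hairpin 2. Of all genes, 32.1% were higher and 18.1% lower with hairpin 1, and 6.62% higher and 3% lower with hairpin 2. These shares are the background for each group of the list that follows. For the list as a whole the counts are near them. The list medians were 0.11 and 0.09, equal to those of all genes at this precision. With hairpin 1 the list count was lower without either library of hairpin 1. With hairpin 2 it rose without shNT replicate 2 and fell without any 1 of the 4 hairpin libraries. Leaving out 1 library also moved the count of all genes called with either hairpin, so such shifts are not a trait of the list.

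Among 15 regulators of p53, 2 rose and 4 fell with hairpin 1, against 32.1% and 18.1% of all genes. Cdkn2a, whose products are the cyclin-dependent kinase inhibitor p16 and the Mdm2 inhibitor Arf, was at 138 and 162 TPM in shNT, 46.2 and 49.9 with hairpin 1, and 172 and 174 with hairpin 2. Only hairpin 1 was low, at 32.1% of shNT, while hairpin 2 lay above both shNT values. Cdkn2a fell by 1.62 ± 0.09 with hairpin 1 (log2, SE; limma adjusted p = 0.000183), a call kept in all 17 alternatives; gene-level TPM does not separate the p16 and Arf transcripts. With hairpin 2 it was at 0.21 (limma adjusted p = 0.159), called only without shNT replicate 2 (0.0158). Trp53bp1, a DNA break response protein that binds p53, fell by 0.77 with hairpin 1, from 7.44 and 6.98 TPM in shNT to 3.95 and 3.68 (limma adjusted p = 0.000743). It lies on chromosome 2, whose median gene was at -0.27, and it was at -0.49 after centring (limma adjusted p = 0.00398). Rchy1, a ubiquitin ligase for p53, rose by 0.73 with hairpin 1 (limma adjusted p = 0.000937), from 17.6 and 18.6 TPM to 28.9 and 32.7.

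Mdm4, the partner of Mdm2 that blocks p53 activity, was at 10.5 and 11.4 TPM in shNT, 10.4 and 9.39 with hairpin 1, and 11.8 and 11.6 with hairpin 2. Its difference with hairpin 1 was -0.14 in deposited TPM (limma adjusted p = 0.151). It passed as lower after median-ratio scaling (limma adjusted p = 0.0355), quantile normalization (0.0285) or without small-RNA entries (0.0439). Wrap53, the divergent neighbour of Trp53, was not called in any of the 4 comparisons, with 8.58 to 11.7 TPM over the 6 libraries. Without hairpin 2 replicate 1 it was called higher in the mean of both hairpins (0.24; limma adjusted p = 0.0424). The p53 relatives were nearly silent: Trp63 was listed at 0 in 5 libraries and at 0.0120 TPM in shNT replicate 1, and Trp73 at 0 in all 6.

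Among 9 targets of arrest and signalling, 5 rose and 1 fell with hairpin 1 (32.1% and 18.1% of all genes). The member that fell was Cdkn1a, the p21 inhibitor of cyclin-dependent kinases and the best known p53 target. It was at 17.9 and 18.0 TPM in shNT, 14.9 and 14.4 with hairpin 1, and 13.9 and 15.4 with hairpin 2, so that all 4 hairpin libraries lay below shNT. Cdkn1a fell by 0.28 ± 0.06 with hairpin 1 (log2, SE; limma adjusted p = 0.0139) and stood at -0.28 with hairpin 2 (0.0514). Leaving out replicate 1 or 2 of hairpin 1 ended the hairpin 1 call (limma adjusted p = 0.0514 and 0.0793). The hairpin 2 difference passed after median-ratio scaling (limma adjusted p = 0.0284), quantile normalization (0.0348), chromosome centring (0.0279) or at a mean TPM of at least 5 (0.0427). One of the Cdkn1a promoter windows held a pair of half-sites, shown because no window of the 8 genes above held one. They lie at chr17:29090906-29090915 and chr17:29090928-29090937 on the plus strand. The pair is a match of letters to the pattern, and binding of p53 to it was not tested.
Cdkn1a, first half-site: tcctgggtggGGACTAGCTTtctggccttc
Cdkn1a, second half-site: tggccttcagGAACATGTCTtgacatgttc
Rap2b, a small GTPase, rose by 0.48 with hairpin 1 (limma adjusted p = 0.000936) and was at 16.0 TPM in both shNT and hairpin 2 means (limma adjusted p = 1.000).

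Among 7 apoptosis targets, 3 rose and 3 fell with hairpin 1 (32.1% and 18.1% of all genes), and 1 fell with hairpin 2 (3% of all genes). That gene was Tnfrsf10b, the TRAIL death receptor, at 29.7 and 28.6 TPM in shNT, 24.8 and 25.5 with hairpin 1, and 23.9 and 22.6 with hairpin 2. It was lower in 4 of 4 hairpin libraries and fell by 0.26 ± 0.04 in the mean of both hairpins (log2, SE; limma adjusted p = 0.00878). The call with hairpin 2 (-0.31; limma adjusted p = 0.0279) ended when either library of hairpin 1 (0.0758 and 0.0759 for replicates 1 and 2) or of hairpin 2 (0.152 and 0.165) was left out. With the replicate block it was lost as well (limma adjusted p = 0.0552).

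Among 5 genes of DNA repair, 2 rose with hairpin 1 (32.1% of all genes) and 1 with hairpin 2 (6.62%). Pold1, the catalytic subunit of DNA polymerase delta, rose by 0.33 ± 0.04 in the mean of both hairpins (log2, SE; limma adjusted p = 0.00346). It was at 29.4 and 29.9 TPM in shNT and at 36.7 to 38.3 TPM in the 4 hairpin libraries. This rise was not called without small-RNA entries (0.18; limma adjusted p = 0.143). The hairpin 1 call was lost in that setting (limma adjusted p = 0.229) and after chromosome centring (0.0822). The hairpin 2 call was lost in 10 of 17 alternatives. Among these were median-ratio scaling (limma adjusted p = 0.0510), quantile normalization (0.0553), removal of small-RNA entries (0.296), chromosome centring (0.0837) and the replicate block (0.0522). It was also lost without replicate 1 or 2 of hairpin 1 (limma adjusted p = 0.0663 and 0.0662) or of hairpin 2 (0.159 and 0.131).

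Of 6 metabolic targets, 3 rose with hairpin 1 (32.1% of all genes) and 1 with hairpin 2 (6.62%). Ephx1, an epoxide hydrolase of xenobiotic metabolism, was at 18.98 and 19.7 TPM in shNT, 58.9 and 58.2 with hairpin 1, and 26.3 and 29.5 with hairpin 2. It rose by 1.55 ± 0.06 with hairpin 1 (log2, SE; limma adjusted p = 0.000104) and by 0.50 with hairpin 2 (0.0203). That hairpin 2 call ended when any hairpin library was left out, with a limma adjusted p of 0.0641 and 0.0645 for replicates 1 and 2 of hairpin 1, and 0.0849 and 0.116 for those of hairpin 2. The gap between the hairpins was itself called, at -1.05 (limma adjusted p = 0.000378).

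**Figure D4:**
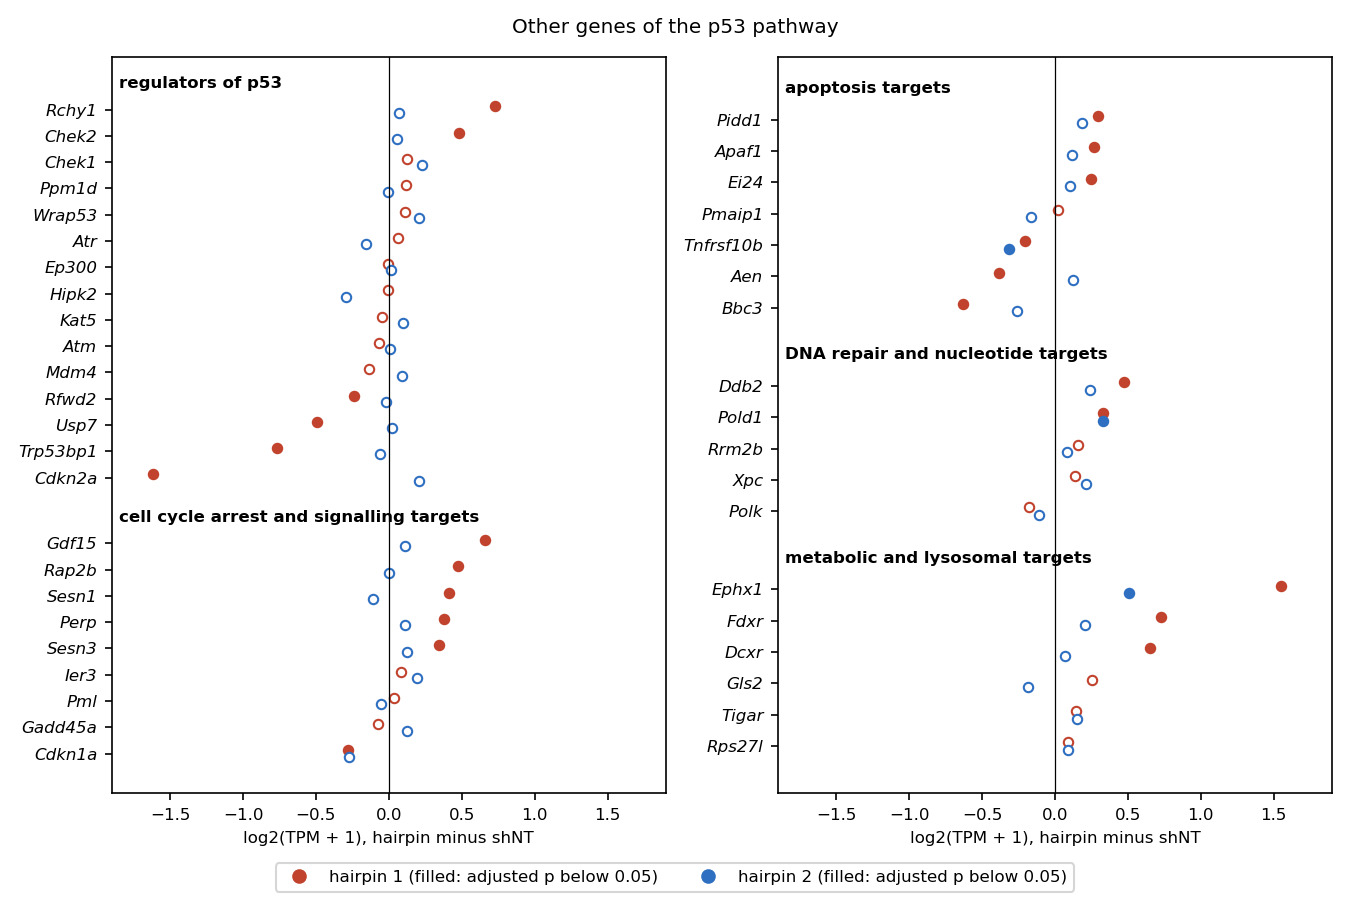
Difference of each hairpin from shNT in log2(TPM + 1) (horizontal axes) for the 42 other pathway genes past the filter, grouped by role; filled points have a limma adjusted p below 0.05. Cdkn2a (-1.62) and Ephx1 (1.55) mark the ends of the hairpin 1 range, and 3 hairpin 2 points are filled.

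Genes whose pattern over the 6 libraries was most like that of Trp53 were sought by the root mean square difference of centred log2(TPM + 1), among 9670 genes with a mean TPM of at least 2. They were Marf1 (0.0139), Atl3 (0.0200) and Npc1 (0.0207), each low with hairpin 1; Marf1 went from 10.2 and 9.82 TPM in shNT to 8.50 and 8.34. For Plk2, the member that varied most, they were Dock8 (0.0728), Fkbp10 (0.0816) and Apob (0.0819). Fkbp10 was at 49.8 and 46.6 TPM in shNT, 10.2 and 10.5 with hairpin 1, and 52.5 and 52.5 with hairpin 2, a low hairpin 1 pair like that of Plk2. Such likeness over 6 libraries is a description, since every gene that differs between hairpin 1 and the rest shares it in part.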

How the data were processed

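RNA was sequenced from 6 libraries in 3 groups of 2, with groups and replicate numbers taken from the sample titles. The authors deposited TPM per gene, which sums to 1000000 in each library. Salmon, DESeq2 and R 3.5 stand in the submitters' processing notes, with the build mm10; the roles, the Salmon version, the annotation and the strandedness are not given in the sources used here. TPM keeps no depth, so no counting interval is given.

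Tests used log2(TPM + 1) in limma 3.58.1 (R 4.3.3). The model had 3 group means over all 6 libraries and a variance prior following mean expression. Tests were two-sided, with Benjamini-Hochberg adjustment over the 11549 genes that reached 1 TPM in 2 or more libraries, at a threshold of 0.05. Trp53inp1 and Pthlh came from the same model without the filter. This scale understates changes of low genes. The model was tested on simulated data.

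The members and the wider list were chosen with earlier results of these data known. All members were named; of the wider list, Cdkn1a, Mdm4, Cdkn2a, Wrap53, Trp63 and Trp73, and the 6 others with the smallest p in the mean of both hairpins. Nearest patterns were taken for Trp53 and the member that varied most. Positions are from GENCODE M21 (mm10), where Rfwd2 of the table is named Cop1. Alternatives covered the pseudocount, filter, scaling, small-RNA entries, variance prior, replicate block, groups fitted and libraries left out; chromosome centring, and all alternatives for genes of the wider list, were added after seeing the data.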

Additional observations from a re-analysis of the deposited data

Results flagged for a closer look

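The labels tie no library to a parental clone, so the part of the clone in what follows was not tested. Both hairpin groups share the same shNT libraries as control, and they differed from each other in 5 members by limma's test of hairpin 2 minus hairpin 1 (log2). The differences were 0.20 for Trp53, -0.27 for Ccng1, -0.56 for Btg2, -0.43 for Phlda3 and 2.19 for Plk2. The Trp53, Ccng1 and Btg2 calls were lost in some alternatives, as given above. Among the other named genes of the pathway they were 0.22 for Mdm4, 1.83 for Cdkn2a, -1.05 for Ephx1, 0.71 for Trp53bp1, -0.66 for Rchy1 and -0.48 for Rap2b. Of these, the Mdm4 difference was the nearest to the threshold (limma adjusted p = 0.0483) and was no longer called when any hairpin library was left out (0.0640 and 0.212 for replicates 1 and 2 of hairpin 1, 0.189 and 0.144 for those of hairpin 2). It was also lost without the filter (limma adjusted p = 0.0880), without small-RNA entries (0.0827), with a variance prior without a trend (0.0555), with the replicate block (0.0769) and after chromosome centring (0.0815).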

How the results depend on the processing

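Counts are of calls by limma at an adjusted p of 0.05, and differences are log2. With both hairpins pooled as 1 group, calls were 0 of the 9 members, 0 of the other pathway genes (7 with an unadjusted p under 0.05) and 1 of all genes. For the mean of both hairpins, calls were 8 of the other pathway genes and 2911 of all genes without small-RNA entries, and 3026 of all genes after chromosome centring, an alternative chosen after seeing the data. For hairpin 2 against shNT, 1 member was called at a mean TPM of at least 5. In the compared groups alone, 0 of the other pathway genes (8 with an unadjusted p under 0.05) and 98 of all genes were called. All genes called were 585 without the filter, 729 after quantile normalization, 520 without small-RNA entries and 514 after chromosome centring. Between the hairpins, 3 members were called without small-RNA entries.

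With 1 library left out at a time, the lone library of its group is assumed to vary like the others. Members called were 3 to 6 for both hairpins, 4 to 7 for hairpin 1, 0 to 1 for hairpin 2 and 2 to 6 between the hairpins. The other pathway genes called were 13 to 20, 14 to 22, 0 to 8 and 8 to 21, and all genes called 2742 to 4880, 3704 to 6161, 6 to 2647 and 2380 to 5681, in the same order.

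Same-numbered replicates did not deviate together over all tested genes (correlations across 11549 genes of 0.0211, 0.0152 and -0.0439). Correlations over all genes cannot exclude a factor that same-numbered libraries share in some genes. With the replicate block, hairpin 2 calls were 1 of the other pathway genes and 276 of all genes, and the Btg2 call in the mean of both hairpins was lost (adjusted p = 0.0568).

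Signs turned as follows, in differences that were called neither before nor after. For hairpin 2 against shNT after median-ratio scaling the values were Mdm2 -0.067, Ccng1 -0.080, Btg2 -0.056, Phlda3 -0.041, Sesn2 -0.074, Mdm4 -0.0014 and Rchy1 -0.021. After quantile normalization they were Mdm2 -0.050, Ccng1 -0.059, Btg2 -0.051, Phlda3 -0.034, Sesn2 -0.085 and Rchy1 -0.0081. Without small-RNA entries they were Mdm2 -0.10, Ccng1 -0.11, Btg2 -0.087, Phlda3 -0.076, Plk2 -0.021, Sesn2 -0.11, Mdm4 -0.034 and Rchy1 -0.056. After chromosome centring they were Mdm2 -0.088, Ccng1 -0.12, Btg2 -0.042, Sesn2 -0.12 and Rchy1 -0.0046. In the mean of both hairpins, Sesn2 was at -0.073, -0.093, -0.13 and -0.14 in the same 4 settings and Ccng1 at -0.0055 after centring. Wrap53 with hairpin 1 was at -0.052 without small-RNA entries and -0.060 after centring. Between the hairpins, median-ratio scaling gave Sesn2 -0.00078, Cdkn1a -0.0052 and Pold1 -0.0050, quantile normalization Trp53inp1 -0.0047, and Zmat3 was at 0.0088 without small-RNA entries and 0.039 after centring. The cause was not tested.

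Leaving out 1 library turned the sign within these ranges. In the mean of both hairpins they were -0.088 to 0.017 for Mdm2, -0.080 to 0.080 for Sesn2 and -0.073 to 0.025 for Mdm4, and with hairpin 1 -0.083 to 0.077 for Sesn2. With hairpin 2 they were -0.040 to 0.091 for Mdm2, -0.045 to 0.067 for Ccng1, -0.071 to 0.097 for Btg2, -0.077 to 0.083 for Sesn2 and -0.015 to 0.014 for Rap2b. Between the hairpins they were -0.067 to 0.078 for Sesn2, -0.037 to 0.15 for Trp53inp1, -0.066 to 0.071 for Cdkn1a, -0.073 to 0.27 for Wrap53 and -0.026 to 0.032 for Pold1. Unknown depth limits what can be said of Trp53inp1 and Pthlh, both near or under 1 TPM.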
